A study of Macaca mulatta with 2 samples.

Results

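Expression of 6 genes of the retinal pigment epithelium (RPE) was examined in spatial transcriptomes of the posterior eye of 2 rhesus macaques. SERPINF1, ENPP2, TIMP3 and ECRG4 encode secreted proteins, BEST1 encodes a chloride channel and SLC39A12 a zinc importer. They were taken by their symbols from the feature list of 26533 genes and transgenes, where each of the 6 symbols matched 1 feature. Levels are described across spots classed as RPE, photoreceptor, inner retina, choroid and sclera.

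The RPE is a single sheet of pigmented cells between the photoreceptors and the choroid, the vascular layer that supplies the outer retina. It secretes growth factors and matrix proteins in a polarised way, towards the retina on its apical side and towards Bruch's membrane and the choroid on its basal side. Its channels and transporters move ions, metabolites and metals between blood and photoreceptors, and several of its genes, BEST1 and TIMP3 among them, are mutated in inherited macular disease.

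Each animal gave 1 section, labelled uninjected, from a full-thickness punch of retina, choroid and sclera of the right eye. NHP1 was a male of 5 years whose eyes carried subretinal blebs of AAV2-CAG-hRPE65, in which the broadly active CAG promoter drives the human gene. NHP2 was a male of 6 years whose eyes carried AAV8-GRK1-hRPGR and AAV8-GRK1-mScarlet, each in its own bleb and each under the photoreceptor promoter of GRK1. Both punches lay outside the treated blebs of an injected eye, so neither is tissue of an untreated animal. All eyes had received triamcinolone under Tenon's capsule, and adalimumab had been given to left eyes, which are not described here. The labels call the tissue fresh frozen in one place and fixed in PFA in another.

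The sections lay on Visium slides, on which each spot of 55 µm captures polyadenylated RNA and tags every molecule with a unique molecular identifier (UMI). Spot centres were 100 µm apart, so a spot can hold several cells, and a spot on the RPE can also hold photoreceptor or choroid. NHP1 had 1484784 UMIs in 534 tissue spots (median 1473.5 per spot), and NHP2 had 805726 UMIs in 470 tissue spots (median 370.5). With 1 section per animal there were no replicates. No test was made, animal and library cannot be told apart, and intervals in parentheses are 95% intervals of counting error only.

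Spots took the class whose marker genes were most enriched, and none of the 6 genes was a marker. This gave 45 RPE spots in NHP1 and 32 in NHP2, with 99165 and 54245 UMIs. The photoreceptor class had 107 and 28 spots, the inner retina 63 and 18, the choroid 35 and 30 and the sclera 141 and 179, while 143 and 183 spots took no class. RPE markers reached 108 UMIs per 10000 in the RPE spots of NHP1 and 153 in those of NHP2, against 17.5 and 18.4 in photoreceptor spots. The RPE class rested mainly on RLBP1 (2195 tissue UMIs in NHP1 and 902 in NHP2), RDH5 (967 and 646) and RGR (703 and 507), since RPE65 gave only 36 and 16 UMIs. RLBP1 is also made by Müller glia. With RLBP1 left out of the markers, an alternative chosen after seeing the data, RPE spots numbered 49 and 32.

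RPE spots also held RNA of their neighbours. The 18 photoreceptor markers found in the reference gave 110.6 UMIs per 10000 in the RPE spots of NHP1 and 138.1 in NHP2, against 324.4 and 311.9 in photoreceptor spots. Choroid markers gave 12.5 and 13.3 in RPE spots against 38.8 and 64.6 in choroid spots, and sclera markers 8.37 and 13.3 against 135.4 and 329.8 in sclera spots. Inner retina markers gave 24.0 and 11.6 in RPE spots against 69.2 and 60.9 in inner retina spots. The 7 Müller glia genes, RLBP1 among them, gave 76.2 and 51.6 against 76.3 and 65.9 in inner retina spots. Pigment genes gave 30.8 and 36.5 in RPE spots, 34.5 and 84.9 in choroid spots and 41.7 and 23.3 in sclera spots. Of the RPE spots, 22 of 45 in NHP1 and 14 of 32 in NHP2 touched a photoreceptor spot, and 16 and 22 touched a choroid spot. Choroid spots were mixed as well. Photoreceptor markers gave 95.4 UMIs per 10000 in the choroid spots of NHP1 and 47.7 in those of NHP2. Sclera markers gave 17.7 and 80.5 there, and RPE markers 28.5 and 14.95, against 38.8 and 64.6 for choroid markers. In NHP2 sclera markers thus exceeded choroid markers in the choroid spots. The part of these mixtures in the levels below was not tested. In spots, fewer cells of a type and less RNA per cell cannot be told apart.

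**Figure D1:**
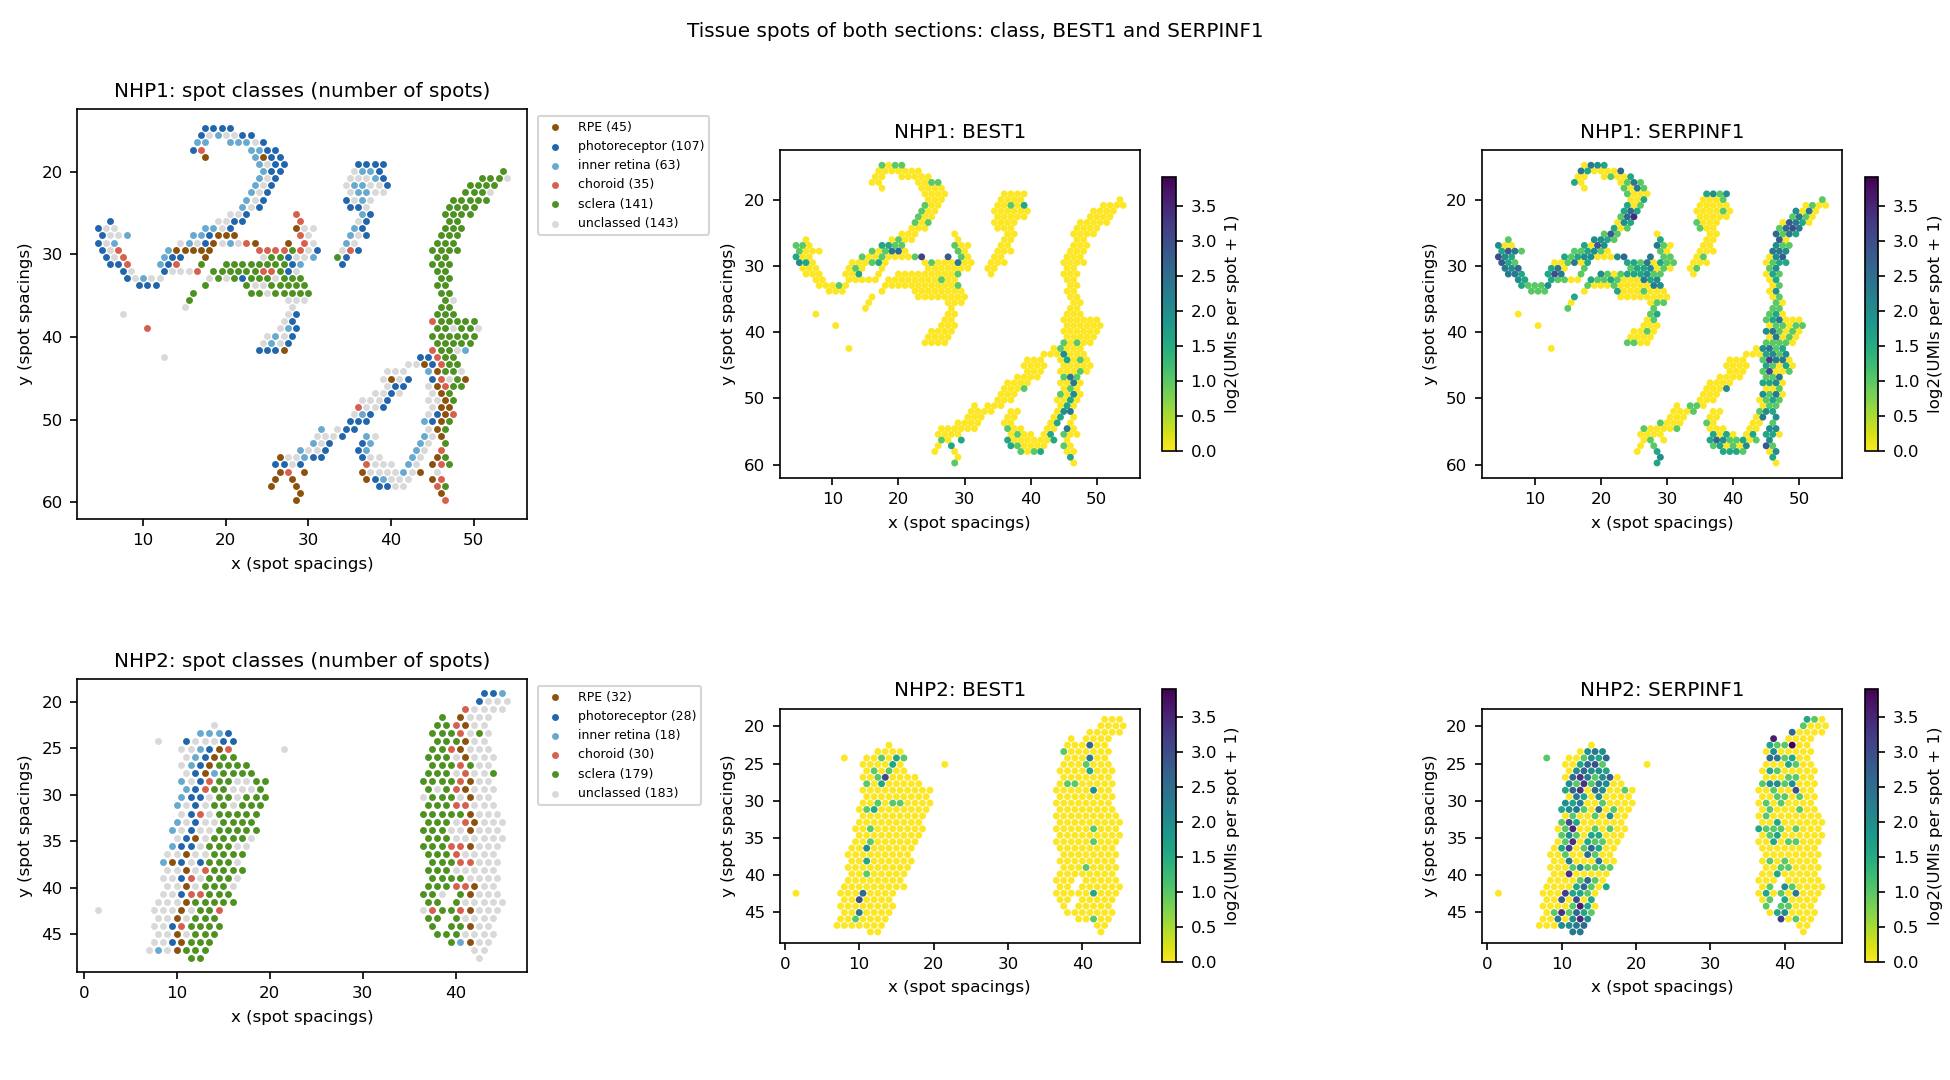
Maps of the tissue spots of NHP1 and NHP2 in spot spacings, coloured by spot class and by UMIs of the genes. RPE spots held 47.3% of the tissue UMIs of BEST1 in NHP1 and 73.0% in NHP2. Of the tissue spots with a BEST1 UMI, 26 of 84 in NHP1 and 19 of 37 in NHP2 were RPE spots. Spots with SERPINF1 UMIs also covered the sclera.

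The 6 genes are spread over 6 chromosomes of Mmul_10. In the RefSeq annotation SERPINF1 lies at chr16:1616697-1633649 on the plus strand, ENPP2 at chr8:119813760-119938121 on the minus strand and TIMP3 at chr10:18645380-18703187 on the minus strand. ECRG4, annotated there as C13H2orf40, lies at chr13:9800699-9812417 on the plus strand. BEST1 lies at chr14:12160971-12181408 on the minus strand and SLC39A12 at chr9:19095694-19176444 on the plus strand. Visium counts 3′ ends per gene, so the values do not show which transcript start was used.

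The 250 bases upstream of the annotated starts differed widely in composition among genes that share high RPE levels. They are shown for the matrix inhibitor TIMP3, the peptide precursor ECRG4 and the zinc importer SLC39A12, 5′ to 3′ on the gene's strand, with CG dinucleotides in capitals. The windows are chr10:18703188-18703437 on the minus strand for TIMP3, chr13:9800449-9800698 on the plus strand for ECRG4 and chr9:19095444-19095693 on the plus strand for SLC39A12.
TIMP3: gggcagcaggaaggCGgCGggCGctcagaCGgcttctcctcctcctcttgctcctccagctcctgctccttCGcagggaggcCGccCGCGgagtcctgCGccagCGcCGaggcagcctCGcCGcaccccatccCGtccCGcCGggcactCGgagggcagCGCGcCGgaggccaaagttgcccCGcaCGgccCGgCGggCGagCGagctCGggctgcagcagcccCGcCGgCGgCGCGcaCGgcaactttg
ECRG4: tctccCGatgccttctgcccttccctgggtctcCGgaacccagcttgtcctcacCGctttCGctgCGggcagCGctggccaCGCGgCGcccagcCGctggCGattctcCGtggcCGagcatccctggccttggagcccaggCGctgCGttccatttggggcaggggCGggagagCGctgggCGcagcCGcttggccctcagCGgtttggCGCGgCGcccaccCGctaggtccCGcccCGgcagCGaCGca
SLC39A12: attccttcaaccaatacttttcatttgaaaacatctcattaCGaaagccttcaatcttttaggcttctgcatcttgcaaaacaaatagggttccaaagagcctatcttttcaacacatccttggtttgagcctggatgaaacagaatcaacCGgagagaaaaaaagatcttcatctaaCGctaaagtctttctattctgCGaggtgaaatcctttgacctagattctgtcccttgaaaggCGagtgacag
The TIMP3 window held 33 CG dinucleotides at 76.4% GC, and that of ECRG4 28 at 72.8% GC. SLC39A12 had 5 at 39.2% GC. Over the windows of 20769 genes the medians were 12 CG dinucleotides and 57.6% GC, so 2 of the 3 were CG-rich and the zinc importer was CG-poor. The windows of BEST1, ENPP2 and SERPINF1 held 18, 7 and 4.

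The same windows were searched on both strands for short words bound by factors of the RPE lineage, CACGTG and CATGTG for MITF and TAATCC for OTX2 and its relatives. CATGTG occurred in 8.19% of all windows, CACGTG in 6.39% and TAATCC in 9.15%. ENPP2 held CATGTG 48 to 43 bases upstream of the start used, which is that of 6 of its 11 transcripts, at 119938007. The word therefore lies inside the annotated gene. SERPINF1 and BEST1 held TAATCC, 159 to 154 and 248 to 243 bases upstream, in each case in a run of 14 bases that recurs in 360 of the 20769 windows. The BEST1 start used, at 12177521, is that of 2 of its 4 transcripts, and its window lies inside the annotated gene. None of the 3 words was in the windows of TIMP3, ECRG4 or SLC39A12. A match describes the sequence and does not show binding.

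SERPINF1 encodes pigment epithelium-derived factor (PEDF), a secreted serpin that restrains vessel growth and supports neurons. It was as high in sclera as in the RPE, or higher. RPE spots held 8.37 UMIs per 10000 in NHP1 (6.67 to 10.4, 83 UMIs) and 19.0 in NHP2 (15.5 to 23.0, 103 UMIs). Sclera spots held 17.2 in NHP1 (14.9 to 19.7) and 16.6 in NHP2 (14.6 to 18.8). RPE spots of NHP1 were thus at 0.487 of the sclera level (0.373 to 0.631), a value that rests mainly on the first of its tissue pieces, and those of NHP2 at 1.14 times it (0.90 to 1.45), an interval that includes 1. Choroid spots followed at 5.09 and 9.16, and photoreceptor spots at 4.43 and 4.65. The choroid and photoreceptor levels of NHP1 did not differ beyond counting error, with a ratio of 1.15 (0.812 to 1.60), while those of NHP2 had a ratio of 1.97 (1.13 to 3.27) per 10000 and 0.202 (0.116 to 0.334) per spot. Inner retina spots were lowest at 0.874 and 1.28. Sclera spots were shallow, with medians of 583 and 590 UMIs, so the scale mattered. In UMIs per spot, RPE held 1.84 in NHP1 and 3.22 in NHP2 against 1.5 and 1.37 in sclera. The per-spot ratio of NHP1 was 1.23 (0.944 to 1.60), in the other direction but with an interval that includes 1, and that of NHP2 was 2.35 (1.85 to 2.97).

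ENPP2 encodes autotaxin, a secreted enzyme that makes the signalling lipid lysophosphatidic acid. Among the 4 genes for secreted proteins it set RPE apart from sclera most. RPE spots held 9.68 UMIs per 10000 in NHP1 (7.84 to 11.8, 96 UMIs) and 28.6 in NHP2 (24.3 to 33.4, 155 UMIs). Photoreceptor spots held 2.76 and 1.80, choroid spots 1.73 and 3.38, sclera spots 1.55 and 2.78 and inner retina spots 0.525 and 0.638. RPE exceeded sclera 6.26-fold in NHP1 (3.80 to 10.8) and 10.3-fold in NHP2 (7.25 to 14.9). It exceeded photoreceptor spots 3.51-fold and 15.9-fold per 10000, and 2.26-fold and 3.99-fold per spot. Below the RPE, the per-10000 ratios of classes next to each other in the order of levels had intervals that included 1, except above the inner retina. Per spot, sclera was at 0.143 and 0.189 of the photoreceptor level, with intervals below 1. ENPP2 was also uneven among RPE spots of at least 200 UMIs, with a median of 3.38 and a highest value of 46.7 per 10000 in NHP1, and 29.2 and 122.9 in NHP2. The lowest value was 0 in both.

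TIMP3 encodes a metalloproteinase inhibitor that binds the extracellular matrix and is a known component of Bruch's membrane. RPE spots held 8.77 UMIs per 10000 in NHP1 (7.03 to 10.8, 87 UMIs) and 10.9 in NHP2 (8.28 to 14, 59 UMIs). Sclera spots held 4.07 and 4.47, choroid spots 2.92 and 4.82, photoreceptor spots 1.26 and 0.422 and inner retina spots 0.233 and 0.245. RPE exceeded sclera 2.16-fold (1.51 to 3.12) and 2.43-fold (1.68 to 3.51). The gap to the inner retina was wider, at 37.6-fold and 44.3-fold per 10000. Per spot, the ratios to inner retina were 15.2 (7.39 to 36.4) and 6.64 (2.69 to 21.2), and those to sclera 5.45 and 5.00. Per 10000, choroid and sclera did not differ beyond counting error in either animal, and both lay above the photoreceptor spots. Per spot, sclera was at 0.46 of choroid in NHP1 (0.282 to 0.764), the interval of sclera over photoreceptor included 1 in both animals, and so did that of choroid over photoreceptor in NHP2.

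ECRG4 encodes augurin, the precursor of secreted peptides. Per 10000, though not per spot, the order of the classes was the same in both animals, from RPE over sclera, choroid and photoreceptor to inner retina. RPE spots held 8.97 UMIs per 10000 in NHP1 (7.21 to 11, 89 UMIs) and 9.95 in NHP2 (7.48 to 13, 54 UMIs). Sclera spots held 4.48 and 5.08, choroid spots 2.49 and 2.89, photoreceptor spots 1.23 and 0.581 and inner retina spots 0.583 and 0.245. RPE exceeded sclera 2.0-fold (1.42 to 2.86) in NHP1 and 1.96-fold (1.35 to 2.82) in NHP2. Sclera over choroid was 1.80 (1.09 to 3.07) in NHP1 and 1.76 (0.77 to 4.94) in NHP2 per 10000, and 0.594 (0.359 to 1.012) and 2.09 (0.919 to 5.89) per spot, where both intervals included 1.

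BEST1 encodes bestrophin-1, a chloride channel of the basolateral RPE membrane. RPE spots made up 8.43% (NHP1) and 6.81% (NHP2) of the tissue spots and held 47.3% and 73.0% of the BEST1 UMIs over tissue. The level in RPE spots was 6.96 UMIs per 10000 in NHP1 (5.41 to 8.81, 69 UMIs) and 9.95 in NHP2 (7.48 to 13, 54 UMIs). Photoreceptor spots held 0.738 and 0.528, sclera spots 0.488 and 0.406 and inner retina spots 0.291 and 0.0491. Choroid spots held 1.19 in NHP1 and no UMI in NHP2, which was taken to allow 3 UMIs or 1.45 per 10000. RPE exceeded sclera 14.2-fold (6.22 to 40.2) and 24.5-fold (10.5 to 69.7), and exceeded choroid 5.84-fold in NHP1 and at least 6.88-fold in NHP2 against that floor. With pigment genes as RPE markers, that ratio of NHP2 was 0.699, in the other direction. Outside the RPE, photoreceptor and sclera spots did not differ beyond counting error per 10000 in either animal. Per spot, sclera was at 0.169 (0.057 to 0.417) and 0.0939 (0.028 to 0.285) of the photoreceptor level.

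SLC39A12 encodes ZIP12, a transporter that brings zinc into the cytoplasm. It had the fewest UMIs of the 6 genes and the largest ratio of RPE to sclera. RPE spots held 3.93 UMIs per 10000 in NHP1 (2.80 to 5.38, 39 UMIs) and 6.82 in NHP2 (4.80 to 9.40, 37 UMIs), which was 48.8% and 80.4% of its tissue UMIs. Photoreceptor spots held 0.574 and 0.264, and inner retina spots 0.233 and 0.0491. Choroid spots held 0.217 from 2 UMIs in NHP1 and none in NHP2, and sclera spots 0.163 from 2 UMIs and 0.0677 from 1 UMI. The ratio of RPE to sclera was 24.2 (6.25 to 206) in NHP1 and 101 (17.0 to 4080) in NHP2, with intervals this wide because the sclera counts are so low. RPE exceeded photoreceptor spots 6.85-fold (3.93 to 12.3) and 25.8-fold (10.1 to 84.2) per 10000, and 4.42-fold and 6.5-fold per spot.

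**Figure D2:**
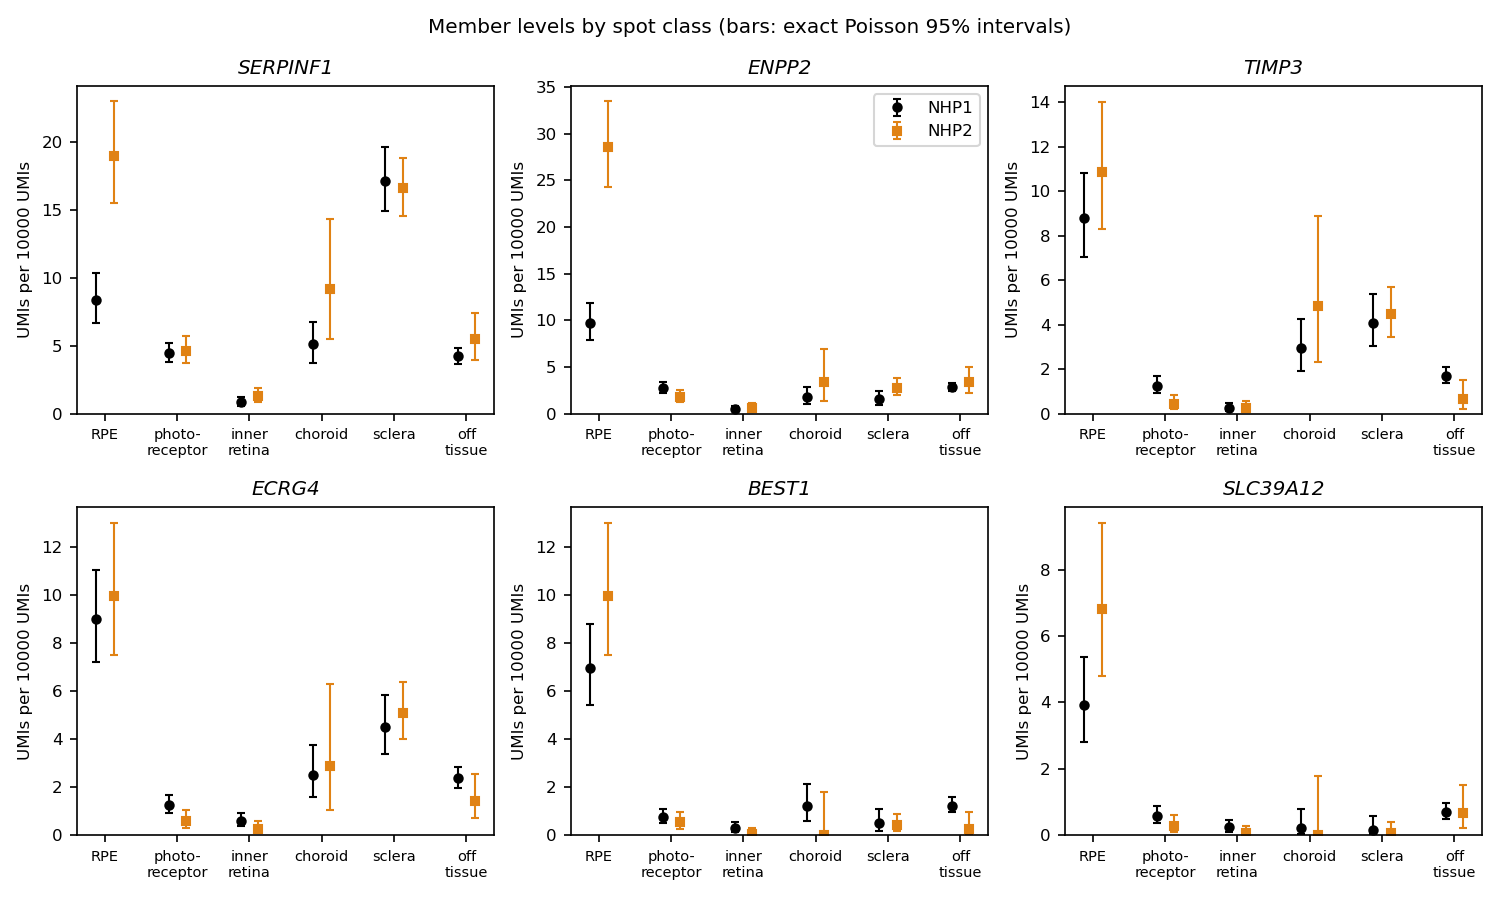
Level of each gene in UMIs per 10000 (y axis, from 0) by spot class for NHP1 and NHP2, with 95% counting intervals as bars. RPE is the highest class for 5 of the 6 genes in NHP1 and for all 6 in NHP2, where the SERPINF1 intervals of RPE and sclera overlap, and SERPINF1 in the sclera of NHP1 (17.2) is the exception.

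Counted together, 5 of the 6 genes were at least 2-fold higher in RPE than in photoreceptor spots of NHP1, where 12.5% of all 6411 genes tested were. In NHP2 it was 6 of 6, against 10.0% of 4722. For inner retina it was 6 of 6 in NHP1 (11.4% of all genes) and 6 of 6 in NHP2 (15%). For choroid it was 5 of 6 in NHP1 (9.67%) and 6 of 6 in NHP2 (27.0%), and for sclera 5 of 6 in NHP1 (13.8%) and 4 of 6 in NHP2 (20.8%). SERPINF1 was the only gene that missed the ratio of 2 against photoreceptor, choroid and sclera in NHP1, and SERPINF1 and ECRG4 missed it against sclera in NHP2. ECRG4 sat at the threshold in both sections. Per spot, SERPINF1 in NHP2 missed the ratio of 2 against photoreceptor spots, at 1.02 (0.763 to 1.38). Against sclera per spot, SERPINF1 (2.35) and ECRG4 (4.03) of NHP2 met it. The 6 genes were chosen with earlier results of these data known, so these counts describe them and test nothing. They also rest on how spots were classed. When pigment genes served as RPE markers, giving 73 and 72 RPE spots, only 1 gene passed against choroid in each animal, and the choroid ratios of NHP2 were 0.879 for SERPINF1, 0.879 for ENPP2 and 0.884 for ECRG4. With classes from clusters of spots, the RPE class of NHP2 was 1 cluster of 72 spots and none of the 6 genes passed against photoreceptor spots, with ratios of 0.709 for BEST1 and 0.337 for SLC39A12. RPE markers were enriched 2.14-fold in that cluster and 2.085-fold in the cluster classed as photoreceptor. A ratio of 0.5 or less against sclera was met by SERPINF1 in NHP1, 1 of 6 with a background of 13.9%, and by none of the 6 in NHP2, with a background of 26.8%.

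The median ratio of the 6 genes was 6.92 against photoreceptor spots, 17.7 against inner retina, 4.60 against choroid and 4.21 against sclera in NHP1. The corresponding medians over all genes tested were 0.868, 0.916, 0.931 and 1.06. In NHP2 the 6 genes had medians of 18, 44.5, 5.95 and 6.36, and all genes 0.759, 0.867, 1.15 and 0.990. BEST1 and SLC39A12 had no UMI in the choroid spots of NHP2 and entered that median as higher than any other ratio. With both set against a floor of 3 UMIs, the choroid median was 4.08. All these medians are of ratios per 10000. Per spot, the ratios of NHP2 were lower, from 1.02 for SERPINF1 to 6.5 for SLC39A12 against photoreceptor spots. Against inner retina they ran from 2.23 for SERPINF1 to 30.4 for BEST1.

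**Figure D3:**
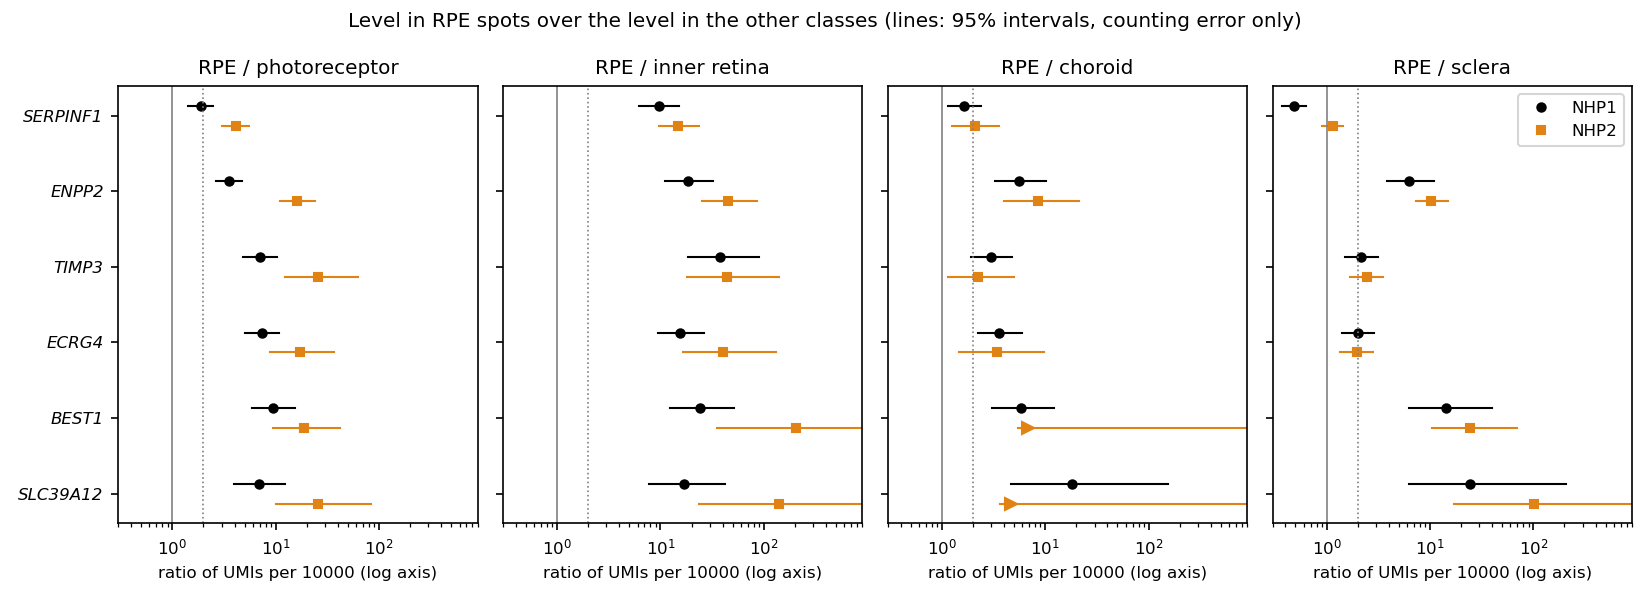
Ratio of RPE to photoreceptor, inner retina, choroid and sclera spots for each gene (log axis), with 95% counting intervals and triangles for lower bounds where the second class had no UMI. Sclera ratios range from 0.487 for SERPINF1 to 24.2 for SLC39A12 in NHP1 and from 1.14 to 101 in NHP2, and the longest intervals run past the end of the axis.

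Spots off the tissue also held UMIs and served as the background of the slide. They held 523115 UMIs in NHP1 and 76907 in NHP2, of which 381373 and 56666 lay within 2 spacings of tissue. The part of tissue RNA in this background was not tested, so a level not above it need not be absent from the tissue. Off-tissue spots held 4.21 SERPINF1 UMIs per 10000 in NHP1 and 5.46 in NHP2, and 1.22 and 0.26 of BEST1. RPE spots exceeded this background for all 6 genes in both sections, from 1.99-fold for SERPINF1 to 5.71-fold for SLC39A12 in NHP1 and from 3.48-fold for SERPINF1 to 38.3-fold for BEST1 in NHP2, where the background of BEST1 rested on 2 UMIs. Sclera spots exceeded it for SERPINF1 (4.08-fold and 3.04-fold), TIMP3 (2.39-fold and 6.88-fold) and ECRG4 (1.89-fold and 3.55-fold). For ENPP2, BEST1 and SLC39A12 the sclera level per 10000 was not above the background in either section. Photoreceptor spots were not above it for any of the 6 genes per 10000, with intervals that included 1 or lay below it. Of the choroid levels, only that of TIMP3 was above it in both sections (1.72-fold and 7.42-fold). Spots off the tissue held a median of 8 UMIs in NHP1 and 4 in NHP2, with highest values of 11203 and 7807. In UMIs per spot the photoreceptor and sclera values of all 6 genes were higher than those off the tissue. SERPINF1 stood at 1.51 and 3.14 UMIs in photoreceptor spots against 0.0514 and 0.0104 off the tissue, and ENPP2 in sclera spots at 0.135 and 0.229 against 0.0343 and 0.00646. Off-tissue spots within 2 spacings of tissue held more per spot than all off-tissue spots, except for BEST1 in NHP2 (0 against 0.000497). In NHP1 these near spots were above sclera per spot for ENPP2 (0.146 against 0.135), BEST1 (0.0615 against 0.0426) and SLC39A12 (0.0371 against 0.0142). In NHP2 they were above it for SLC39A12 (0.00813 against 0.00559).

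Position relative to the RPE spots was the next measure. Classed tissue spots were grouped by their distance to the nearest RPE spot, with photoreceptor and inner retina spots as the retinal side and choroid and sclera spots as the outer side. One spacing from the RPE, ENPP2 was at 1.81 per 10000 on the retinal side and 1.77 on the outer side in NHP1, and at 0.832 and 2.03 in NHP2. BEST1 stood at 0.942 and 0.482 in NHP1 and at 0.499 and 0 in NHP2. SLC39A12 had 0.314 and 0.166 on the retinal side of NHP1 and NHP2 and no UMI on the outer side of either. All 3 genes were thus low within 1 spacing of the RPE on both sides.

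SERPINF1, TIMP3 and ECRG4 were higher per 10000 on the outer side than on the retinal side, which did not hold per spot in each case. The per-spot ratios of sclera to photoreceptor spots were 0.988 and 0.436 for SERPINF1, 0.825 and 1.29 for TIMP3 and 0.928 and 1.07 for ECRG4. SERPINF1 was at 7.38 per 10000 one spacing outward in NHP1 and reached 18.4 beyond 5 spacings, and in NHP2 it was at 11.8, reached 18.6 at 3 spacings and was at 12.3 and 9.39 at 4 to 5 and beyond 5. On the retinal side it was at 2.83 and 4.99 one spacing from the RPE. TIMP3 stood at 2.25 and 5.27 one spacing outward and at 0.942 and 0.333 one spacing into the retina, and ECRG4 at 3.53 and 3.65 outward against 1.02 and 0.333.

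**Figure D4:**
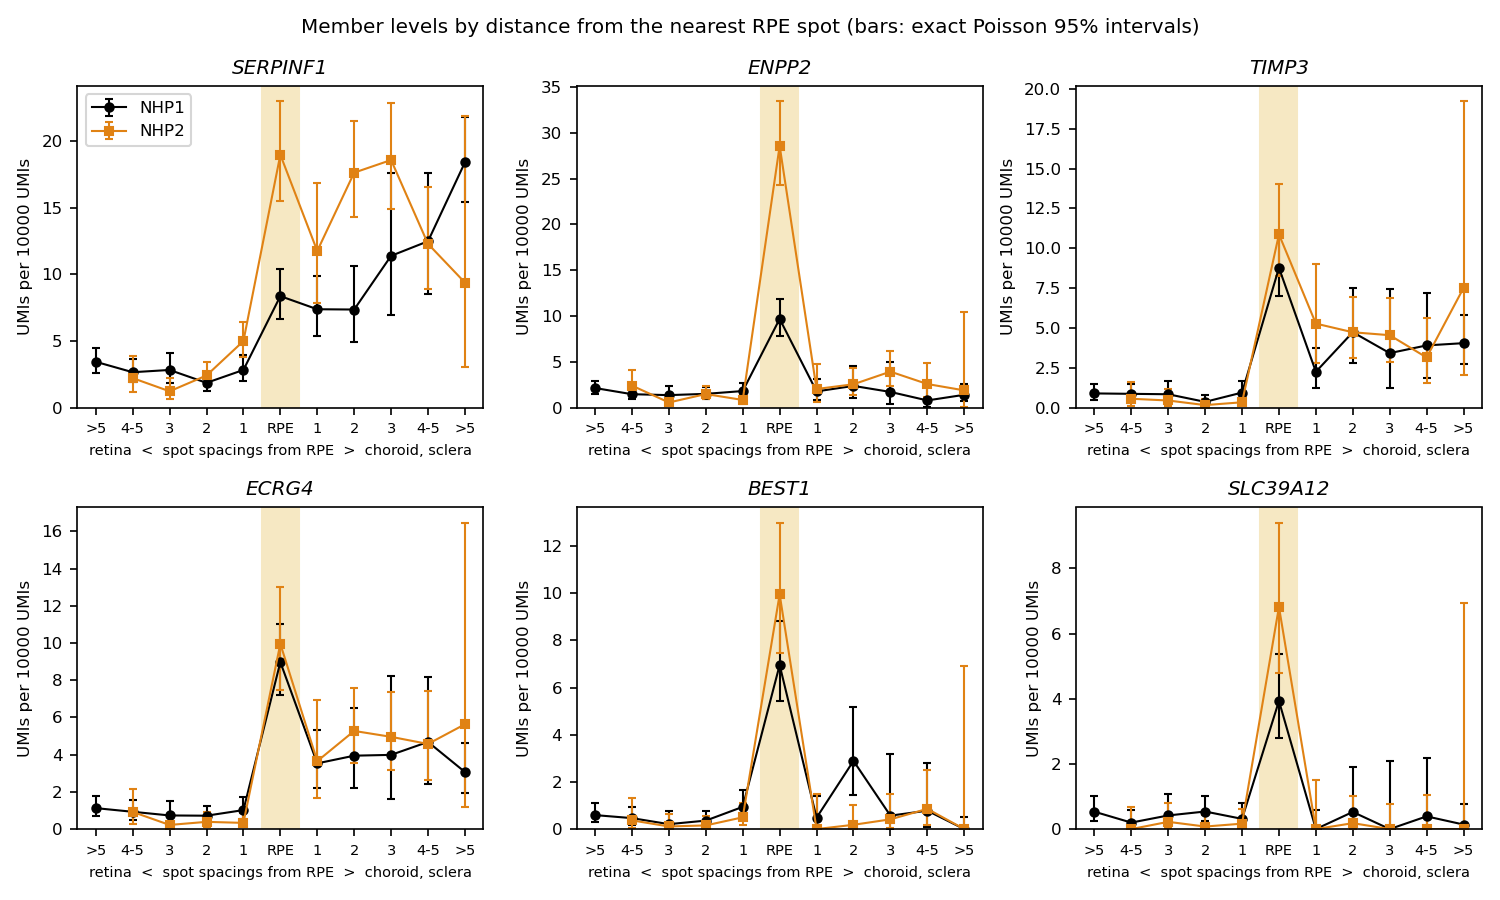
Level in UMIs per 10000 by distance from the RPE spots in spot spacings, retina side to the left and outer side to the right, for NHP1 and NHP2; bins under 5 spots are not drawn. ENPP2, BEST1 and SLC39A12 peak at the RPE, while SERPINF1 extends over the outer side, at 18.4 beyond 5 spacings in NHP1 and 9.39 in NHP2, where it is highest at the RPE (19.0) and at 3 spacings (18.6).

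Values of single RPE spots ranged widely, and the part of counting error in this range was not tested. All 6 genes were seen together in 14 of 45 RPE spots in NHP1 and 12 of 32 in NHP2, and in at most 1 spot of any other class. In contrast, 5 RPE spots of each section held none of the 6. Those of NHP1 held 365, 516, 573, 1824 and 3173 UMIs, against a class median of 1915. Those of NHP2 included spots of 127, 167 and 697 UMIs, against a median of 1276.5. Among RPE spots of at least 200 UMIs, BEST1 had a median of 3.93 per 10000 and a highest value of 39.4 in NHP1, and 7.54 and 39.2 in NHP2. SLC39A12 had a median of 0 in NHP1 and 2.18 in NHP2, with highest values of 31.3 and 28.9. TIMP3 ranged up to 36.0 and 39.2 and ECRG4 up to 44.7 and 44.2. Several of these highest values rested on few UMIs in shallow spots. They came from 2 UMIs of 555 and 1 of 255 for TIMP3, and from 3 of 671 and 1 of 226 for ECRG4. For BEST1 they came from 2 UMIs of 508 and 1 of 255. The lowest spot was at 0 for every gene in both sections. The summed level of the 6 genes in RPE spots was 46.7 UMIs per 10000 in NHP1 (42.5 to 51.1) and 85.2 in NHP2, against 27.9 and 29.4 in sclera and 2.74 and 2.50 in inner retina.

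Each section lay in separate pieces of tissue, and the RPE levels were compared between the pieces. In NHP1 the 29 RPE spots of the first piece and the 16 of the second gave overlapping intervals for all 6 genes, for example 9.99 and 6.35 SERPINF1 UMIs per 10000. SERPINF1 in the sclera of NHP1 was at 21.9 (18.7 to 25.4) in the first piece and 9.36 (6.74 to 12.6) in the second, where its interval overlapped that of the RPE (4.22 to 9.17). In NHP2 the first piece had 17 RPE spots with 16961 UMIs, and the second 15 with 37284. Photoreceptor spots numbered 3 and 25 in these pieces and inner retina spots 2 and 16. The retinal levels of NHP2 thus rest mainly on the second piece. ENPP2 in RPE spots stood at 47.8 (37.9 to 59.4) in the first piece and 19.8 (15.6 to 24.9) in the second, intervals that do not overlap. The part of depth and retinal mixture in this difference was not tested. SERPINF1 was level between the pieces of NHP2, at 18.9 and 19.0. TIMP3 was at 16.5 and 8.31 and SLC39A12 at 10.6 and 5.1 there, with overlapping intervals.

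Between the animals, none of the 6 genes differed by 2-fold or more in either direction over all tissue spots, where 13.6% of all genes did, and their ratios of NHP2 to NHP1 ran from 0.934 to 1.66. In RPE spots 2 of the 6 did, against 26.9% of all genes. ENPP2 in the RPE spots of NHP2 was at 2.95 times the level of NHP1 (2.27 to 3.85) and SERPINF1 at 2.27 times (1.68 to 3.07). SLC39A12 was at 1.73 (1.08 to 2.79), and the intervals of TIMP3, ECRG4 and BEST1 included 1. In photoreceptor spots the levels of NHP2 per 10000 were instead the lower ones for TIMP3 (0.336, 0.137 to 0.719), ECRG4 (0.472, 0.220 to 0.927) and ENPP2 (0.650, 0.427 to 0.968). In UMIs per photoreceptor spot, ENPP2 was higher in NHP2 (1.21 against 0.944 in NHP1). By that scale ECRG4 stood at 0.393 against 0.421 and TIMP3 at 0.286 against 0.430. In sclera the SERPINF1 levels of the animals had a ratio of 0.966 (0.80 to 1.17). RPE spots of NHP2 also had the higher RPE marker level, 153 against 108 per 10000, and the part of this in the ENPP2 and SERPINF1 differences was not tested.

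Across tissue spots of at least 100 UMIs, 530 in NHP1 and 337 in NHP2, the correlation of log1p UMIs per 10000 was computed between each gene and 3396 genes, as a description. These had at least 50 tissue UMIs in each section, so SLC39A12 was not among them. Genes were ranked by the lower of the r values of the sections, so the first gene by this rule need not be the highest within one section. The spots share a library and differ in depth. RGR, an opsin of the RPE, ranked first for BEST1 (r = 0.51 in NHP1 and 0.51 in NHP2) and for ENPP2 (0.42 and 0.44), although in NHP2 alone ENPP2 had a higher r with BEST1 (0.47). BEST1 ranked first for SLC39A12 (0.43 and 0.54), followed by RGR and STRIP2. TTR, the carrier of retinol and thyroxine, was among the 3 ranked genes nearest to ENPP2 (0.41 and 0.35), ECRG4 (0.36 and 0.27) and BEST1 (0.44 and 0.38). The nearest genes to SERPINF1 were TIMP3 (0.33 and 0.30) and MXRA8 (0.31 and 0.29). Its r with SLC39A12 was 0.09 and 0.15, and with ECRG4 0.23 and 0.15. BEST1 ranked first for TIMP3 (0.31 and 0.32), with RGR higher in NHP1 alone (0.36). TIMP3 ranked first for ECRG4 (0.32 and 0.30), with TTR and CST3 higher in NHP1 alone.

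The authors' spatial statistic, Moran's I, which is high where neighbouring spots have like values, ranked SERPINF1 at 32 of 13804 genes in NHP1 with a score of 0.350 and at 690 of 12542 in NHP2 with 0.0697. ECRG4 scored 0.104 (rank 431) and 0.0448 (rank 1337), BEST1 0.101 (457) and 0.00647 (4472) and TIMP3 0.100 (464) and 0.0130 (3519). ENPP2 scored 0.0470 (1550) and 0.00395 (4938), and SLC39A12 0.0467 (1561) and 0.00116 (5511). All 6 genes thus ranked higher in NHP1 than in NHP2.

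Most other secreted factors of the RPE were higher there than in photoreceptor spots, and they split against sclera. Of the 28 genes on this list, 15 of 19 with at least 10 UMIs were 2-fold or more higher in RPE than in photoreceptor spots of NHP1 and 12 of 17 in NHP2, against backgrounds of 12.5% and 10.0%. Against sclera 6 of 21 and 7 of 19 were, where 13.8% and 20.8% of all genes were, while 5 and 9 were at 0.5 or less, where 13.9% and 26.8% of all genes were. Like the 6 genes, this list and those below were chosen with earlier results of these data known. Single genes of the lists were named by the largest and smallest ratios, so they need not be typical. TTR reached 235 and 305 UMIs per 10000 in RPE spots against 37.2 and 10.9 in sclera spots. CST3, the protease inhibitor cystatin C, reached 136 and 232 against 65.9 and 77.7. BMP7 and BMP4, growth factors of the BMP family, were 8.26-fold and 21.8-fold and 2.26-fold and 7.48-fold higher in RPE than in sclera. FBLN1, a matrix glycoprotein, lay on the sclera side, with 0 and 0.369 in RPE against 11.2 and 17.2 in sclera. TIMP1, an inhibitor related to TIMP3, was at 0.807 and 0.553 against 7.08 and 14. Within the TIMP family, RPE was above sclera for TIMP3 and below it for TIMP1 in both animals.

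Other transporters and channels of the RPE were higher in RPE than in sclera for 8 of 11 genes with at least 10 UMIs in NHP1 and 9 of 10 in NHP2, by at least 2-fold, against 13.8% and 20.8% of all genes. None was at 0.5 or less, where 13.9% (NHP1) and 26.8% (NHP2) of all genes were. The anion exchanger SLC4A2 held 5.34 and 8.11 UMIs per 10000 in RPE spots against 1.47 and 2.03 in sclera and 0.765 and 0.95 in photoreceptor spots. The organic anion transporter SLC22A8 held 1.71 and 3.50 in RPE spots against 0.137 and 0.211 in photoreceptor spots. The lactate transporter SLC16A1 held 3.23 and 6.64 against 0.651 and 0.610 in sclera. The taurine transporter SLC6A6 went the other way against photoreceptors, with 8.97 and 6.82 in RPE spots and 14.8 and 11.1 in photoreceptor spots.

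Among 27 zinc transporters and metallothioneins in the reference, besides SLC39A12, 5 of 13 with at least 10 UMIs in NHP1 and 5 of 9 in NHP2 were at least 2-fold higher in RPE than in photoreceptor spots, against 12.5% and 10.0% of all genes. At 0.5 or less were 4 of the 13 and 1 of the 9. The share of all genes at 0.5 or less against photoreceptor spots was not computed, so nothing is read from these lower counts. The metallothioneins, which bind zinc and copper in the cytoplasm, led the genes higher in RPE in both animals. MT1E held 54.6 and 74.3 UMIs per 10000 in RPE spots against 10.2 and 13.3 in photoreceptor spots, and MT2A 7.46 and 14.9 against 1.31 and 1.27. MT1 and MT2 genes are near-identical copies, so the split of reads among them is uncertain. MT3 instead was an inner retina gene, with 0.202 and 0.184 in RPE spots against 2.74 and 3.63. Of the importers related to SLC39A12, SLC39A6 held 1.71 and 2.77 against 1.18 and 1.21 in photoreceptor spots, and SLC39A14 held no UMI in the RPE spots of NHP1 and 1.29 per 10000 in NHP2.

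Receptors, enzymes and targets of the secreted proteins were compared between RPE and sclera, where 13.8% (NHP1) and 20.8% (NHP2) of all genes were at least 2-fold higher in RPE and 13.9% and 26.8% were at 0.5 or less. None of 5 lysophosphatidic acid receptors, phosphatases and related enzymes with at least 10 UMIs was 2-fold higher in RPE than in sclera in either animal, and 2 in NHP1 and 3 in NHP2 were at 0.5 or less. LPAR1, a receptor for the product of autotaxin, held 0.101 and 0 UMIs per 10000 in RPE spots and 0.896 and 1.29 in sclera spots. PLPP3, a phosphatase that degrades that lipid, held 1.82 and 0.369 against 3.58 and 2.64. Of the proteases and partners of TIMP3, 1 of 7 was 2-fold higher in RPE than in sclera in each animal, KDR in NHP1 (2.35-fold) and EFEMP1 in NHP2 (5.08-fold), and 4 of 7 were at 0.5 or less. MMP2 held 1.31 and 0.553 in RPE spots against 8.06 and 17.3 in sclera spots, and MMP14 0.303 and 0.369 against 1.38 and 2.37. The PEDF receptor candidates PNPLA2, RPSA and PLXDC1 were all under 2-fold against sclera, and 1 of the 3 was at 0.5 or less in NHP2, with RPSA at 9.48 and 8.30 in RPE and 11.7 and 14.2 in sclera. The other 3 bestrophin genes did not reach 10 UMIs in these comparisons.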

How the data were processed

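Visium sections from 2 animals were used. The deposited matrices hold the authors' raw UMI counts for every spot of the capture area, made with Space Ranger 2.1.0 against Mmul_10 with transgenes. Moran's I, deposited by the authors per gene, is a score without a fixed range. The deposited p-values and average counts were not used. The members and all gene lists were chosen with earlier results of these data known. The main text names the 6 genes and the 3 genes most correlated with each member. List genes with at least 20 tissue UMIs in a section were named by the largest and smallest ratios, so they need not be typical of their lists. A tissue spot took the class with the highest enrichment, (marker UMIs + 2) / (expected + 2), if that was at least 1.5 and rested on at least 2 marker UMIs. UMIs were summed over spots of a class per 10000, with exact Poisson intervals, and ratios have exact conditional binomial intervals. A gene counted in a ratio had at least 10 UMIs over the classes compared, and a count of 0 was taken to allow 3 UMIs. Tissue spots within 2.1 spacings were joined into pieces. Promoters came from the RefSeq annotation of Mmul_10, with a single start site taken per gene. Doublets were not sought in spots. Python 3.11.15, numpy 2.4.6, scipy 1.17.1, pandas 2.3.3 and matplotlib 3.10.9 were used, and the counting was tested on simulated data. Alternatives were other thresholds, depths, scalings, markers and classes from clusters.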

Additional observations from a re-analysis of the deposited data

How the results depend on the processing

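No paired analysis was possible because each animal gave 1 section and no result comes from a test. Of 100 alternative counts of genes past a 2-fold ratio, 82 stayed within 1.5 times the reported count and 18 did not. With pigment genes as RPE markers, the counts were 1 against choroid and 3 against sclera in NHP1 and 1 against choroid in NHP2. With classes from clusters of spots, NHP2 gave 0 against photoreceptor, 1 against choroid and 1 against sclera. No cluster of NHP1 took the RPE class, so NHP1 under this setting is not among the 100 counts or the 426 ratios below. Spots thinned to 200 UMIs gave 3 in each of the 4 comparisons of NHP1 and 2 in each of those of NHP2, as fewer genes kept 10 UMIs. Between the animals, the counts of the 6 genes were 2 in RPE, 3 in photoreceptor, 2 in inner retina and 1 in choroid spots, where 26.9%, 17.6%, 16.1% and 42.3% of all genes passed. Of 426 alternative ratios, 321 stayed within the counting interval of the reported value, 94 moved out of it and 11 changed direction. In UMIs per spot SERPINF1 was 1.23 times higher in RPE than in sclera in NHP1. With pigment genes as markers, the RPE to choroid ratios of NHP2 were 0.879 for SERPINF1 and for ENPP2, 0.884 for ECRG4 and 0.699 for BEST1. With clusters, the RPE to photoreceptor ratios of NHP2 were 0.961 for SERPINF1, 0.709 for BEST1 and 0.337 for SLC39A12, the RPE to choroid ratio of SERPINF1 was 0.95, and the RPE to sclera ratios were 0.954 for TIMP3 and 0.915 for ECRG4. Pigment genes are also expressed by choroidal melanocytes, and the causes of these changes were not tested. Without RLBP1 as a marker, chosen after seeing the data, the counts were 6, 6, 6 and 5 in NHP1 and 6, 6, 5 and 4 in NHP2 against photoreceptor, inner retina, choroid and sclera. Levels without the spot that held most UMIs of the gene moved in 4 of 60 cases, and levels by piece in 32 of 120. The values of BEST1 and SLC39A12 rest on low counts outside the RPE, where many classes held under 10 UMIs.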
